A study of Rattus norvegicus with 44 samples.

Results

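The BCL2 family genes described here are Bcl2, Bcl2l1, Bcl2l2, Mcl1, Bax, Bak1, Bcl2l11, Bmf, Bbc3 and Bad, 10 genes chosen by name because their proteins include the targets of ABT-263 and the partners those targets bind. Of these names, 8 were analysed, out of 18347 gene identifiers in the table of normalized values, and all 8 had a mean high enough to be tested (15598 genes in all). Mcl1 and Bbc3 are not analysed here. The values came from the dentate gyrus (DG) of 44 male F344 rats, with 1 RNA library per rat and a total of 14297964 to 20579982 normalized units per library. The 10 young rats (YNG) were 6 months old and are listed with vehicle in the authors' table of sample attributes. The older rats were 12 months old when treatment began and about 18 months old when it ended, and received vehicle (AV, 12 rats), ABT-263 at 12 mg/kg (AA, 11 rats) or dasatinib at 1.2 mg/kg with quercetin at 12 mg/kg (ADQ, 11 rats). The older rats were dosed by gavage for 5 days in each of 8 cycles, with a final round after behavioral tests, and tissue was taken 2 weeks after that round, so no value was measured while a drug was being given. The drugs were dissolved in a mixture of Phosal, PEG and ethanol, and the schedule of vehicle in YNG is not given in the sources used here. The labels give the age of each rat, and the treatment comes from that table. Of the 9 dentate granule cell markers, 6 were high enough to test, with means from 616 (Stxbp6) to 5952 (C1ql2), Dock10 was not analysed here, and Tdo2 and Lct were near 0 (0.661 and 1.47). Markers of CA1 cells varied 22.8-fold in their sum over the rats.

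BCL2 family proteins decide whether the outer membrane of the mitochondrion is opened during apoptosis. BAX and BAK are the effectors that form the pores, BCL2, BCL-XL (from Bcl2l1), BCL-W (from Bcl2l2) and MCL1 hold them in check, and BH3-only proteins such as BIM (from Bcl2l11), BMF and BAD bind the protective members and release the effectors. ABT-263 (navitoclax) is a small molecule that sits in the BH3-binding groove of BCL2, BCL-XL and BCL-W, and it is used as a senolytic because many senescent cells lean on these proteins. Dasatinib, a tyrosine kinase inhibitor, and quercetin, a plant flavonol, are used together as a senolytic and do not bind that groove as their main action. Mature neurons of the adult brain are known to depend mainly on BCL-XL.

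The promoters of 3 members are shown because these members deviated together from rat to rat, as described further on. They are the RefSeq sequences of the GRCr8 build, 300 bases each, from 250 bases before the listed start to 50 after it, written 5′ to 3′ on the strand of the gene. RefSeq lists 4 starts for Bcl2l1, of which the most upstream is shown, and 1 each for Bak1 and Bad. The build of the deposited values is rn6, so these coordinates cannot be laid over it. They are chr3:161764726-161765025 on the minus strand for Bcl2l1, chr20:5110925-5111224 on the minus strand for Bak1 and chr1:213562864-213563163 on the plus strand for Bad. Capitals mark any match on either strand to 5 motifs: the GC box GGGCGG, the CCAAT box CCAAT, the ETS site CCGGAAG, the E-box CACGTG and the TATA box TATAAA.
Bcl2l1: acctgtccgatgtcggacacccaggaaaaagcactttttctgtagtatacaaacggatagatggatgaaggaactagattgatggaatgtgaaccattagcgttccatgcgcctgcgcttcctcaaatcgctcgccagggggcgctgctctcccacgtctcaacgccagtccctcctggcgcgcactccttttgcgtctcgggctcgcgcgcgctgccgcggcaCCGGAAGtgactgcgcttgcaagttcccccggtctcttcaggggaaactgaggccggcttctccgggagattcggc
Bak1: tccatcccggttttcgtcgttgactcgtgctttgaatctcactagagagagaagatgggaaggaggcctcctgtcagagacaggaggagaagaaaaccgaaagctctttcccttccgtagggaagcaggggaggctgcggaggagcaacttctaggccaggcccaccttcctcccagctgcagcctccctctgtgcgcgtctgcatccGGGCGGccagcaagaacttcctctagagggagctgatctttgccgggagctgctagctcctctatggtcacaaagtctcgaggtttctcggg
Bad: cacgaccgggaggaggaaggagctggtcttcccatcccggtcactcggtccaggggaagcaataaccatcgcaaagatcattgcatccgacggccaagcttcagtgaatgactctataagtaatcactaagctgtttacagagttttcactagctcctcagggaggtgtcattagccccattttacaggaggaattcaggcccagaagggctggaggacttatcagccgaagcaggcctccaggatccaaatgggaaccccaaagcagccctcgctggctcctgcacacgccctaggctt
The Bcl2l1 window holds 1 ETS match, 26 bases before the start, the Bak1 window holds 1 GC box, 42 bases before the start, and the Bad window holds none of the 5 motifs. Over all 33469 RefSeq promoters of this length, 8.75% hold the ETS site, 33.1% the GC box, 37.5% the CCAAT box, 6.42% the E-box and 14.2% the TATA box. No motif was shared by the 3 windows.

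Among the targets of ABT-263, Bcl2l2 and Bcl2l1 had the larger normalized values in DG and Bcl2 the smallest. These values are not divided by transcript length, so they rank genes only roughly. Averaged over the 44 rats, the normalized value was 2234 for Bcl2l2, above 93.0% of all genes, 1131 for Bcl2l1, above 84.8%, and 26.2 for Bcl2, above 27.5%. The effectors lay between, at 396 for Bax and 195 for Bak1. Of the BH3-only genes, Bad had a mean of 460, Bcl2l11 of 46.5 and Bmf of 45.6.

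**Figure D1:**
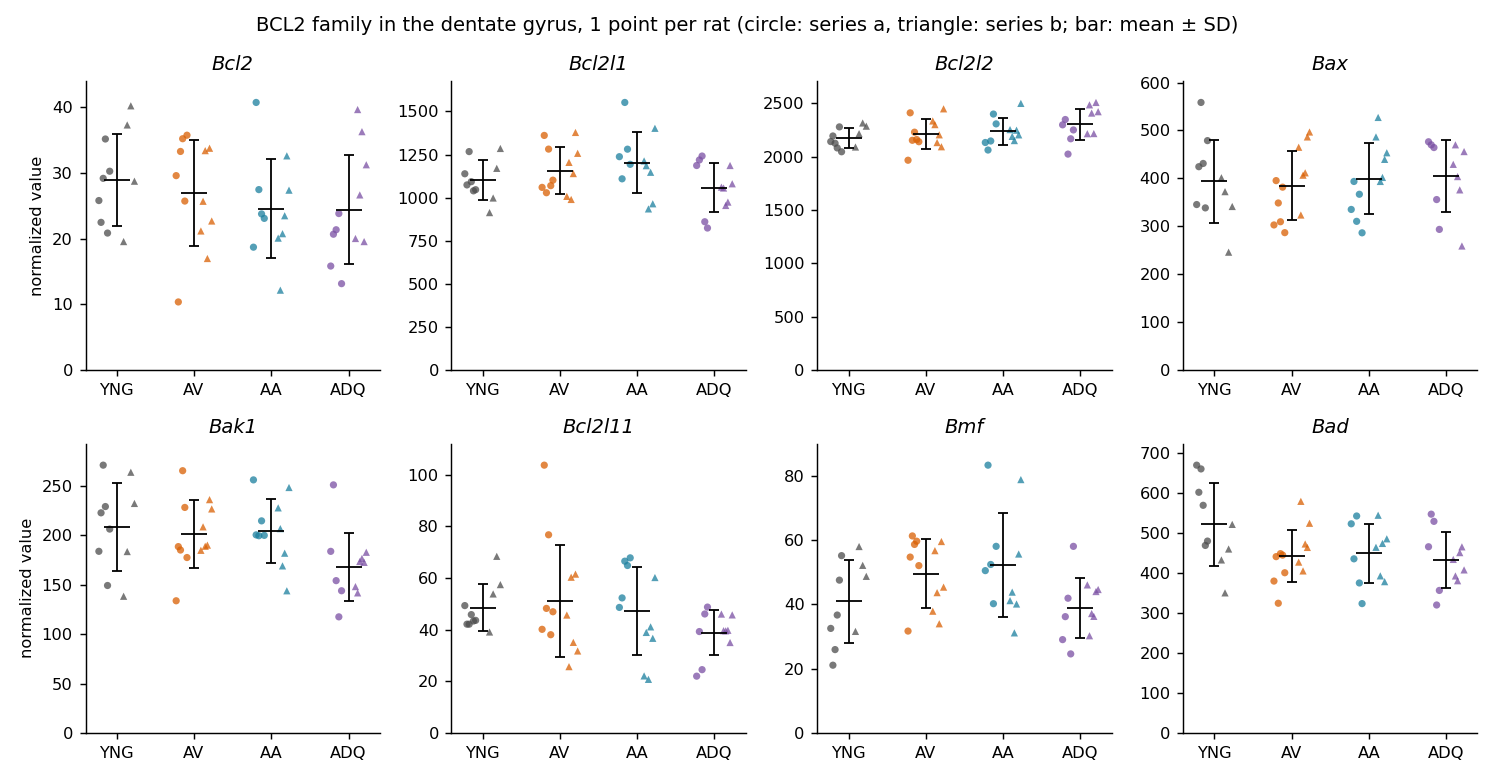
Normalized value (y axis, linear from 0) of each BCL2 family gene in every rat, by group (x axis); circles are rats of series a, triangles rats of series b, and bars give the group mean ± SD. The groups overlapped for every gene; in Bak1, 10 of the 11 ADQ rats lay below the median of all rats, and in Bcl2l2 the 44 rats spanned 1967 to 2508.

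The question most particular to this family is whether the genes for the targets of ABT-263, or for their partners, differed in the older rats that received it. None of the 8 members passed the test in AA against AV at an unadjusted p of 0.05, the threshold of the study, where 4.51% of all genes did and 0% passed after adjustment. The log2 differences of the members lay between -0.12 (Bcl2) and 0.06 (Bax), that is from -7.77% to 3.93%. The 95% intervals reached from -0.50 to 0.39 across the 8 genes, and their width differed between genes.

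Bcl2 encodes the founding protective member of the family. Its normalized value had a lowest, median and highest rat of 19.6, 28.9 and 40.2 in YNG, 10.4, 27.6 and 35.7 in AV, 12.2, 23.5 and 40.7 in AA, and 13.2, 21.4 and 39.6 in ADQ. The means fell in the order YNG (28.9 ± 7.01, SD, n = 10), AV (26.96 ± 8.02, n = 12), AA (24.6 ± 7.53, n = 11) and ADQ (24.4 ± 8.31, n = 11), and no neighbours in this order differed beyond their spread. The log2 difference was -0.25 ± 0.20 (SE) in AA against YNG (limma, adjusted p = 0.421) and -0.27 ± 0.20 in ADQ against YNG (adjusted p = 0.375). The rats of all groups overlapped over most of their range, and the lowest value of all belonged to the AV rat 3989.

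With the deposited scaling, Bcl2l1, the gene of BCL-XL, passed the unadjusted test between the 2 drug-treated groups, and in no comparison with a vehicle group. Its lowest, median and highest values were 914, 1083 and 1285 in YNG, 990, 1121 and 1378 in AV, 935, 1193 and 1552 in AA, and 824, 1061 and 1241 in ADQ. The AA mean was the highest (1202 ± 176, SD, n = 11) and the ADQ mean the lowest (1059 ± 143, n = 11), with 8 of 11 AA rats and 4 of 11 ADQ rats above the median of all rats. The log2 difference of AA against ADQ was 0.18 ± 0.08 (SE; 95% interval 0.02 to 0.34), with an unadjusted p of 0.0289 and a limma adjusted p of 0.981. It missed the threshold in a permutation test (p = 0.0509) and without any 1 of the rats 3985, 4107, 4006 and 4007, with p up to 0.0764. The difference was 0.05 ± 0.08 in AA against AV and -0.13 ± 0.08 in ADQ against AV, neither of which passed. With values scaled to the library total, Bcl2l1 passed against YNG in AV (0.17, limma p = 0.0202, adjusted p = 0.150) and in AA (0.27, adjusted p = 0.0245). That scaling moved the median of all genes by 0.10 and 0.15 in these comparisons.

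Bcl2l2, the gene of BCL-W, was the steadiest member. Its values ran from 2046 to 2316 in YNG, 1967 to 2448 in AV, 2063 to 2499 in AA and 2024 to 2508 in ADQ, a range of 1.28-fold over 44 rats. The SD within groups was 0.08 on the log2 scale, where the median of the 500 genes nearest to it in level was 0.23 and only 0.2% of them had a smaller SD. Means rose in the order YNG (2178 ± 94.8, SD, n = 10), AV (2215 ± 138, n = 12), AA (2236 ± 127, n = 11) and ADQ (2304 ± 147, n = 11), with no neighbours apart by the test. ADQ against YNG gave 0.08 ± 0.05 (SE) on the log2 scale, at a limma p of 0.0944 and adjusted p of 0.256, while a permutation test of the same value gave p = 0.0355. It passed under other settings, at 0.22 with values scaled to the library total (limma adjusted p = 0.0115), which moved the median of all genes by 0.14, 0.11 with upper quartile scaling (p = 0.0235, limma adjusted p = 0.117) and 0.11 with weights per library (limma adjusted p = 0.0214). Under these settings 33.5%, 28.7% and 51.9% of all genes passed unadjusted. At this spread the interval for AA against AV was narrow, from -0.08 to 0.10.

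**Figure D2:**
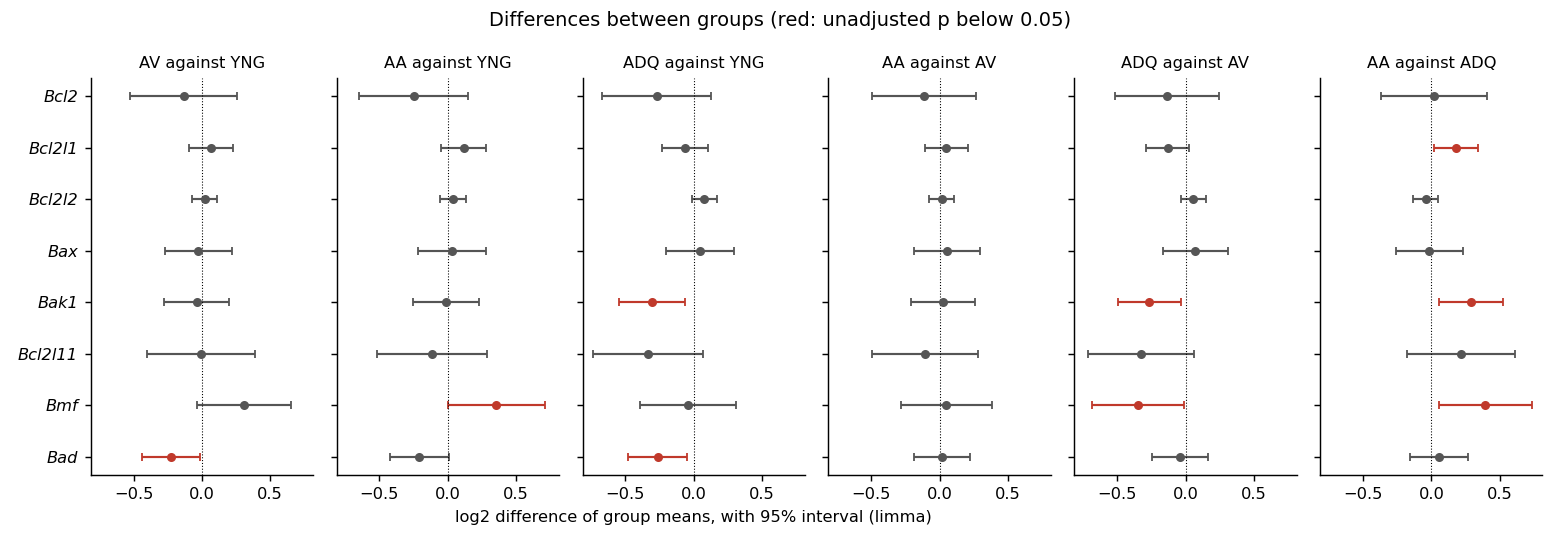
Log2 difference of group means (x axis) of each gene in 6 comparisons, with the 95% interval from limma; red marks an unadjusted p below 0.05. In AA against AV all 8 intervals include 0, and Bak1 lies at -0.30 for ADQ against YNG and -0.27 for ADQ against AV, while AA against ADQ gives 0.29.

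Of the effectors, Bak1 was lower in ADQ than in each of the other groups at the unadjusted threshold. Its lowest, median and highest values were 138, 215 and 271 in YNG, 134, 190 and 266 in AV, 144, 201 and 256 in AA, and 118, 173 and 251 in ADQ. Only 1 of 11 ADQ rats, rat 4004, lay above the median of all rats, against 6 of 10 YNG, 7 of 12 AV and 8 of 11 AA rats. ADQ against YNG gave -0.30 ± 0.12 (SE) on the log2 scale with an unadjusted p of 0.0154 (limma adjusted p = 0.0961). In this comparison 28.1% of all genes passed the unadjusted threshold and 7.08% the adjusted one, so the passing of Bak1 and of 1 other member, Bad, both lower, is a share near the background. ADQ against AV gave -0.27 ± 0.11, with p = 0.0251 (limma adjusted p = 0.464), where 9.32% of all genes passed unadjusted and 0% adjusted. The p rose to 0.0640 without rat 4006 and also missed the threshold without rat 4009. AA against ADQ gave 0.29 ± 0.12, with p = 0.0167 (limma adjusted p = 0.981), where 4.53% of all genes passed unadjusted and 0% adjusted. The rats were divided by number into 2 series, a and b, described below. AA against ADQ was 0.37 in series a and 0.22 in series b, passing in neither. These 3 comparisons share the ADQ rats. ADQ against YNG was -0.33 in series a and -0.26 in series b, without passing in either. With library total scaling it was -0.16 (p = 0.163), and with weights per library -0.39 (p = 0.000332, limma adjusted p = 0.00162), a setting under which 51.9% of all genes passed unadjusted.

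The summed markers of most cell types had lower means in ADQ than in AV too, with overlapping ranges. They were 69562 and 97782 for oligodendrocytes, 67117 and 81573 for astrocytes, and 6960 and 10914 for CA1 cells. Markers of microglia, endothelial cells, oligodendrocyte precursors, choroid plexus and red blood cells were lower as well. Those of granule cells (11865 and 11305) and of CA3 and mossy cells (6074 and 4740) were higher. Against AA, the same lists were lower and higher in ADQ as against AV. Against YNG the lists were divided. The ADQ mean was higher for endothelial cells (2313 and 2198 in YNG), astrocytes (67117 and 62975), oligodendrocyte precursors, choroid plexus, and CA3 and mossy cells. It was lower for oligodendrocytes (69562 and 72621), CA1 cells (6960 and 9026), granule cells, microglia and red blood cells. In bulk tissue, fewer cells of a type and less RNA per cell cannot be told apart. The summed normalized value of the 8 microglial markers, all of them measured, was 4550 to 6092 in ADQ and 5159 to 10112 in AV, and that of the 5 measured of 7 endothelial markers was 2125 to 2656 in ADQ and 2075 to 8122 in AV, with none of these markers at 0. The part of these cells in the Bak1 and Bmf values was not tested.

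Bmf, a BH3-only gene, was at the unadjusted threshold higher in AA than in YNG and lower in ADQ than in AV and AA. Its lowest, median and highest values were 21.1, 42.1 and 58.0 in YNG, 31.7, 53.4 and 61.3 in AV, 31.1, 50.5 and 83.3 in AA, and 24.6, 37.1 and 58.0 in ADQ. AA against YNG was 0.36 ± 0.17 (SE) on the log2 scale, with p = 0.0464 (limma adjusted p = 0.181). Bmf was the 1 member that passed there, against a background of 26.6% of all genes unadjusted and 3.85% adjusted, and without rat V2 it missed the threshold (p = 0.132), as it did without any of 10 other rats and in a permutation test (p = 0.0881). It was 0.66 in series a (p = 0.0186) and -0.0034 in series b (p = 0.989). Weights per library gave 0.42 (p = 0.0175, limma adjusted p = 0.0491), a setting under which 45.3% of all genes passed unadjusted. ADQ against AV was -0.35 ± 0.17 (p = 0.0443, limma adjusted p = 0.521), a call that leaving out any of 13 rats removed, rat 4006 giving the largest p (0.0974). AA against ADQ was 0.40 ± 0.17 (p = 0.0248, limma adjusted p = 0.981), and without rat 3984, 4006 or 4107 it did not pass, with p up to 0.0627. With weights per library these last 2 differences did not pass, at -0.24 (p = 0.144) and 0.26 (p = 0.102). With Bak1 and Bcl2l1 this made 3 of 8 members higher in AA than in ADQ and none lower, none of them after adjustment, where 4.53% of all genes passed unadjusted. Bak1 and Bcl2l1 also deviated together across rats (r = 0.62, described below), so these calls are not independent of each other. Within series b it was 0 of 8, where 4.15% did.

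Bcl2l11, the gene of BIM, a strong activator of the effectors, spread most of all members, from 20.8 to 103.8 over the rats. Its lowest, median and highest values were 39.1, 44.7 and 68.4 in YNG, 25.7, 46.3 and 104 in AV, 20.8, 48.6 and 67.8 in AA, and 21.99, 39.6 and 48.8 in ADQ. The AV rat 3989, with the lowest Bcl2, had this highest Bcl2l11 value. ADQ against YNG was -0.33 ± 0.20 (SE) on the log2 scale (limma p = 0.103, adjusted p = 0.270), below the threshold in a permutation test (p = 0.0155) and in a fit of that pair of groups alone (p = 0.0313). ADQ against AV was -0.33 ± 0.19 (p = 0.0953, limma adjusted p = 0.637), and -0.23 without rat 3989.

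Bad, a BH3-only gene whose product is held inactive when phosphorylated, was the member most often lower in older rats. Its lowest, median and highest values were 351, 501 and 671 in YNG, 325, 443 and 580 in AV, 324, 465 and 545 in AA, and 320, 434 and 548 in ADQ. The YNG mean was 522 ± 103 (SD, n = 10) and the older means were 443 ± 66.2 in AV (n = 12), 450 ± 74.3 in AA (n = 11) and 432 ± 69.6 in ADQ (n = 11). The log2 difference from YNG was -0.22 ± 0.11 (SE) in AV (p = 0.0382, limma adjusted p = 0.207), -0.21 ± 0.11 in AA (p = 0.0589, adjusted p = 0.205) and -0.26 ± 0.11 in ADQ (p = 0.0183, adjusted p = 0.104). All older groups together gave -0.23 ± 0.09 (p = 0.0119, limma adjusted p = 0.0641), which stayed below 0.05 without any 1 rat. Bad was the 1 member that passed in AV against YNG, where 21.3% of all genes passed unadjusted and 2.35% adjusted, and in all older groups against YNG, where 32.4% and 14.9% did, so 1 of 8 is not above the background in either. With values scaled to the library total, which moved the median of all genes up by 0.10 to 0.15 in the comparisons with YNG, Bad differed from YNG by -0.12 in AV and in ADQ and by -0.10 in all older groups (p = 0.197) and passed in none of these. Weights per library gave -0.37 in AV (limma, p = 0.000168), where 49.3% of all genes passed.

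Bax, the other effector, had nearly equal means in the 4 groups, at 394 ± 86.4 in YNG (SD, n = 10), 385 ± 72.4 in AV (n = 12), 400 ± 73.7 in AA (n = 11) and 405 ± 75.7 in ADQ (n = 11). Its lowest, median and highest values were 246, 387 and 558 in YNG, 287, 389 and 497 in AV, 287, 394 and 527 in AA, and 259, 429 and 476 in ADQ. No comparison passed, and the log2 difference of all older groups from YNG was 0.02 ± 0.10 (SE; limma adjusted p = 0.929). These means covered opposite differences within the study.

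The rats were divided by their names into 2 series. Series a takes in V1 to V6 and the older rats up to 4011. Series b takes in V9 to V12 and the older rats from 4031. It is not a single run of numbers, since its AA and ADQ rats are 4031 to 4110 and its AV rats 4566 to 4572. Within series b, a difference of AA or ADQ from AV therefore cannot be told apart from one between these number ranges. The labels name no batch, and the split was taken from an earlier analysis of these values. That analysis had found that comparisons with YNG differ between the 2 series. The tests of such differences below use the same values, so their p-values are not independent evidence. Series a held 22 rats (6 YNG, 6 AV, 5 AA and 5 ADQ) and series b held 22 (4, 6, 6 and 6). One transcript, AABR07000398.1, took 0.422 to 1.60% of the library in rats of series a, and 1.71 to 11.1% in those of series b. It was read from the same values and does not tell what the series are.

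Bax was lower in AV and AA than in YNG within series a and higher within series b. In series a its mean was 430 ± 83.0 (SD, n = 6) in YNG, 338 ± 44.7 (n = 6) in AV and 339 ± 42.9 (n = 5) in AA. In series b it was 340 ± 67.4 (n = 4) in YNG, 432 ± 64.9 (n = 6) in AV and 450 ± 50.8 (n = 6) in AA. Among AA rats the highest of series a (393.66) lay just under the lowest of series b (393.69), and how many of all genes were parted so was not counted. Within AA, series b minus series a was 0.41 ± 0.15 (SE) on the log2 scale (limma p = 0.00898, adjusted p = 0.188). In that test 13.1% of all genes had an unadjusted p below 0.05. The log2 difference from YNG was -0.33 within series a (p = 0.0270) and 0.35 within series b (p = 0.0385) for AV, and -0.33 (p = 0.0370) and 0.42 (p = 0.0152) for AA, by limma within each series. None of these passed after adjustment. The test of the difference between series gave 0.69 ± 0.22 (SE) for AV (p = 0.00272, limma adjusted p = 0.0544) and 0.75 ± 0.22 for AA (p = 0.00148, adjusted p = 0.0623), where 21.8% and 17.3% of all genes had an unadjusted p below 0.05. For ADQ it was 0.29 ± 0.22 (p = 0.195), against 8.89% of all genes.

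Bad was lower in older rats within series a and not within series b. In series a the YNG rats held 470 to 671 and the AV rats 325 to 449, in a comparison where 33.4% of all genes passed the unadjusted threshold. How many of all genes had ranges apart in this way was not counted. In series b the YNG rats held 351 to 522 and the AV rats 406 to 580. The log2 difference of AV from YNG was -0.49 ± 0.15 (SE) in series a (p = 0.00321, limma adjusted p = 0.0261) and 0.12 ± 0.12 in series b (p = 0.332), and the test of the difference between series gave 0.62 ± 0.20 (p = 0.00346, limma adjusted p = 0.0613). All older groups against YNG gave -0.43 in series a (p = 0.00227, limma adjusted p = 0.0161) and 0.04 in series b (p = 0.705). Within YNG itself the series differed by -0.38 for Bad (b minus a, p = 0.0135, limma adjusted p = 0.325) and by -0.34 for Bax (p = 0.0422, adjusted p = 0.415).

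Bcl2l11 went the other way. In AA its mean was 60.0 ± 8.90 (SD, n = 5) in series a and 36.6 ± 14.5 (n = 6) in series b, while in YNG it was 44.4 ± 2.77 (n = 6) and 54.7 ± 12.1 (n = 4). The test of the difference between series for AA against YNG gave -1.05 ± 0.37 (SE) on the log2 scale (p = 0.00678, limma adjusted p = 0.124). Within series a, Bcl2l11 was also 0.77 higher in AA than in ADQ (p = 0.00589, limma adjusted p = 0.799), whereas series b gave -0.24 (p = 0.333). Among YNG rats, the mean sum of endothelial markers was 1653 ± 472 (SD, n = 6) for series a but 3014 ± 938 (n = 4) for series b. For AV it was 4038 ± 2200 and 3146 ± 864, within the spread. For AA it was 2718 and 2577, and for ADQ 2354 and 2278. Single rats of series a ran from 1196 to 2478 (YNG) and from 2075 to 8122 (AV). Those of series b ran from 2039 to 4036 and from 2516 to 4789. In AA the astrocyte sum had a mean of 72376 in series a and 64695 in series b, and the CA1 sum 13592.6 and 11618.5. The AA sums for granule cells, CA3 and mossy cells, and microglia had higher means in series b. Those of the other lists had lower means there, and the ranges overlapped in every list. For the other groups, lists besides the endothelial one are not set out by series here. The part of endothelial or other cells in the Bax, Bad and Bcl2l11 values was not tested.

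**Figure D3:**
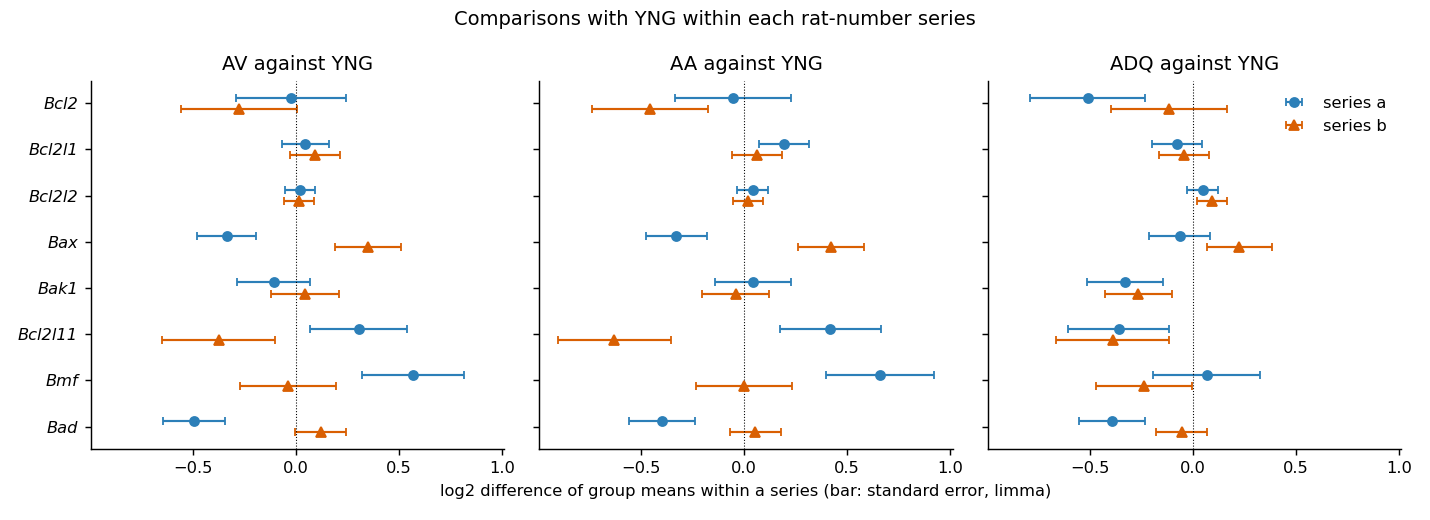
Log2 difference from YNG (x axis) of each gene in AV, AA and ADQ, fitted by limma within series a (circles) and series b (triangles), with standard errors. For Bax the 2 series lie on opposite sides of 0 in AV (-0.33 and 0.35) and in AA (-0.33 and 0.42), while for Bcl2l2 they lie together.

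Some members have 2 rows in the table, which the authors' counting divided between transcripts that the rows do not name. For Bax the second row held 29.02% of the gene's value on average, from 4.07% to 53.3% over the rats. Its mean was 91.7 ± 43.4 (SD, n = 10) in YNG, 123 ± 40.9 in AV (n = 12), 129 ± 42.6 in AA (n = 11) and 112 ± 33.1 in ADQ (n = 11). Taken alone, in a fit chosen after the values were seen, this row was 0.53 ± 0.23 (SE) higher on the log2 scale in all older groups than in YNG (p = 0.0275, limma adjusted p = 0.129) and 0.62 ± 0.28 higher in AA than in YNG (p = 0.0333, adjusted p = 0.184). The first row, with a mean of 302 in YNG and 261 to 293 in the older groups, passed in no comparison. The change between series was larger in the first row, where the mean of AA was 216 in series a and 316 in series b, against 330 and 261 in YNG. How estimated reads were divided between the 2 rows of Bax bears on both values.

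The balance of an effector to a protective member can be read within each rat as log2 of Bax minus log2 of Bcl2. It was 3.73 ± 0.52 in YNG (SD, n = 10), 3.83 ± 0.65 in AV (n = 12), 4.01 ± 0.57 in AA (n = 11) and 4.04 ± 0.46 in ADQ (n = 11). Single rats ran from 2.59 to 4.29 in YNG and from 2.97 to 5.33 in the older groups, so the groups overlapped over most of their range. This difference is given as a description, and compares groups rather than the levels of the 2 genes.

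Across rats, 3 members deviated together. After the mean of each group within each series was removed, Pearson's r over 44 rats was 0.71 for Bcl2l1 and Bad, 0.62 for Bcl2l1 and Bak1 and 0.56 for Bak1 and Bad, the genes whose promoters are shown above. Over the same rats Bcl2 and Bcl2l1 gave -0.09 and Bcl2 and Bax -0.01. The deviations of the library total went with 2 of the 3 genes, with r of 0.62 for Bcl2l1 and 0.63 for Bad, and 0.38 for Bak1, although the values were already scaled by library, and the part of the total in these correlations was not tested.

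**Figure D4:**
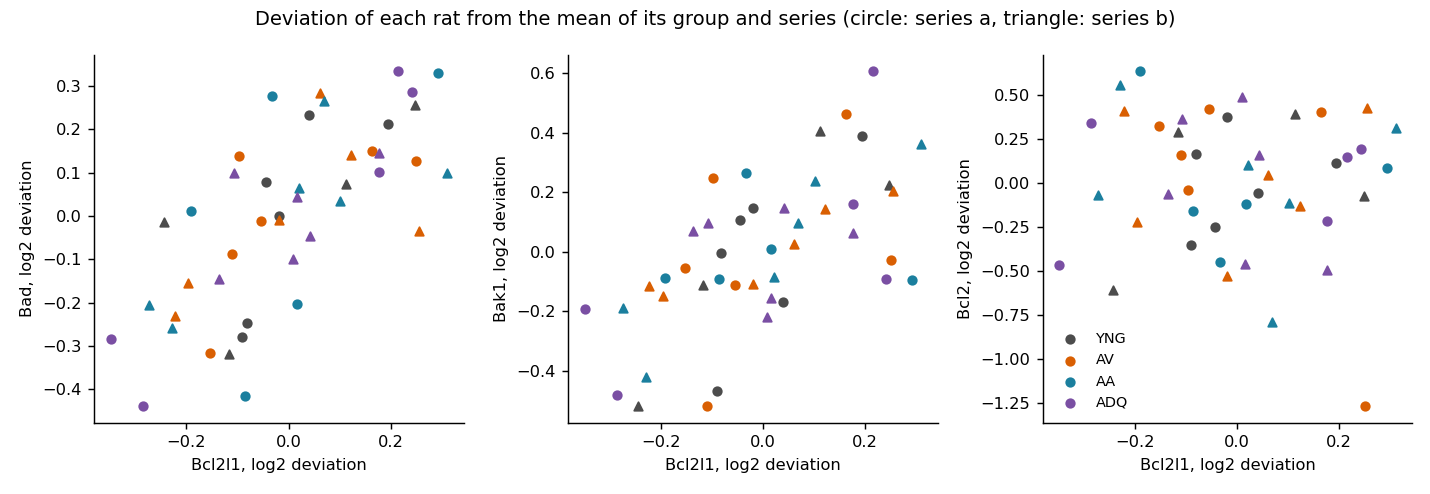
Deviation of Bad, Bak1 and Bcl2 (y axes, log2) against that of Bcl2l1 (x axes, log2) in 44 rats, each from the mean of its group and series; colors are groups, circles series a and triangles series b. Bad (r = 0.71) and Bak1 (r = 0.62) rise with Bcl2l1, and Bcl2 (r = -0.09) does not.

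The genes whose deviations were most like those of each target were sought among 13704 genes with a mean of at least 20. For Bcl2l1 they were Mpst (r = 0.85), Cenpb (0.84) and Flywch1 (0.82), and for Bcl2l2 they were Nfe2l1 (0.67), Iqsec3 (0.64) and Zc3h7b (0.63). For Bcl2 they were AABR07030527.2 (0.62), Csrnp3 (0.61) and Gpc6 (0.59), and without the 2 rats farthest from the median of Bcl2 these values dropped to 0.42, 0.38 and 0.49. All are correlations over 44 libraries and share the libraries' depth and scaling.

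The rest of the pathway was read from 4 lists, whose counts at the unadjusted threshold are set beside all genes tested. Of the 9 other BCL2 family genes tested, 2 passed in AV against YNG, 2 in AA against YNG, 3 in ADQ against YNG and none in AA against AV. The shares of the list against YNG were 22.2%, 22.2% and 33.3%, beside 21.3%, 26.6% and 28.1% of all genes, and thus near the background. Pmaip1, the gene of the BH3-only protein NOXA, a partner of MCL1, had a mean of 33.02 ± 14.2 in YNG (SD, n = 10), 89.3 ± 75.5 in AV (n = 12), 54.8 ± 14.9 in AA (n = 11) and 55.6 ± 15.7 in ADQ (n = 11). It was higher than in YNG by 1.24 ± 0.25 (SE) on the log2 scale in AV (limma adjusted p = 0.00355), by 0.78 in AA (adjusted p = 0.0590) and by 0.81 in ADQ (adjusted p = 0.0436). Its AV values ran from 33.2 to 314, and it was -0.45 in AA against AV, which did not pass (p = 0.0671). Bnip3l, a mitochondrial BH3-like protein active in mitophagy, was lower in AA than in YNG by -0.34 ± 0.10 (limma adjusted p = 0.0494). At the unadjusted threshold it was also lower in AV (-0.22, limma p = 0.0298) and in ADQ (-0.27, p = 0.0122). All older groups together gave -0.28 (limma adjusted p = 0.0263), and AA against AV gave -0.12, which did not pass (p = 0.241). Bid, which links death receptors to the effectors, was 0.35 higher in ADQ than in YNG (p = 0.0118, limma adjusted p = 0.0838).

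Of the 22 apoptosome, caspase and inhibitor genes tested, 5 passed in AV against YNG, 6 in AA against YNG, 7 in ADQ against YNG, none in AA against AV and 3 in ADQ against AV. These were 22.7%, 27.3%, 31.8%, 0% and 13.6% of the list, near the background of 21.3%, 26.6% and 28.1% in the comparisons with YNG, and beside 4.51% and 9.32% in those with AV. Birc6, an inhibitor of apoptosis that ubiquitinates caspases, had a mean of 826 ± 345 in YNG (SD, n = 10) and 1196 to 1390 in the older groups. It was 0.68 ± 0.15 (SE) higher in all older groups than in YNG on the log2 scale (limma adjusted p = 0.00536). Vdac3, a channel of the outer mitochondrial membrane, was lower by -0.35 ± 0.10 (adjusted p = 0.0213), and Dffb, the nuclease that cuts DNA in apoptosis, was higher by 0.54 ± 0.18 (adjusted p = 0.0407).

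Of the 32 regulators and partners tested, 4 passed in AV against YNG, 11 in AA against YNG, 11 in ADQ against YNG, none in AA against AV and 5 in ADQ against AV. The share of the list was 12.5% in AV against YNG, below the 21.3% of all genes, and 34.4% in both AA and ADQ against YNG, beside 26.6% and 28.1%. In ADQ against AV it was 15.6%, beside 9.32%. Several of these genes act on BAD. Akt1, a kinase that phosphorylates BAD, had a log2 difference of ADQ from YNG of -0.35 ± 0.10 (SE; limma adjusted p = 0.0343). It was -0.28 in AA against YNG (limma adjusted p = 0.0846) and -0.27 in all older groups together (adjusted p = 0.0305). The 14-3-3 genes Ywhag and Ywhaz, whose proteins hold phosphorylated BAD in the cytosol, were higher in ADQ, by 0.60 ± 0.14 (limma adjusted p = 0.0188) and 0.32 ± 0.09 (adjusted p = 0.0339) against YNG. The other 5 genes of this family in the list did not pass there, at -0.04 for Ywhae, 0.01 for Ywhab, -0.0051 for Ywhaq, 0.14 for Ywhah and 0.26 for Sfn. Ywhag was 0.42 both in AA against YNG (limma adjusted p = 0.0695) and in all older groups against YNG (adjusted p = 0.0206). Ywhaz was 0.11 in AA against YNG (limma adjusted p = 0.468). Bag1, a co-chaperone that binds BCL2, was lower in all older groups by -0.40 ± 0.09 (adjusted p = 0.00796), and Tpt1, whose protein binds BCL-XL and MCL1, by -0.59 ± 0.19 (adjusted p = 0.0309). Stat3, a transcription factor that can drive Bcl2l1, was higher by 0.22 ± 0.06 (adjusted p = 0.0235). Bcl2l1 itself was 0.04 ± 0.07 in the same comparison. With values scaled to the library total it was 0.17 (limma adjusted p = 0.0342), beside a shift of 0.13 in the median of all genes.

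Of the 12 death receptor genes tested, 5 passed in AV against YNG, 2 in AA against YNG, 2 in ADQ against YNG, 2 in AA against AV and 3 in ADQ against AV. The shares of the list were 41.7% in AV, 16.7% in AA and 16.7% in ADQ against YNG, beside 21.3%, 26.6% and 28.1% of all genes, and so above the background in the first and below it in the other two. In AA and ADQ against AV they were 16.7% and 25%, beside 4.51% and 9.32%. Fas, a death receptor, had a mean of 7.07 ± 4.65 in YNG (SD, n = 10) and 15.1 ± 8.15 in AV (n = 12), and was 1.07 ± 0.30 (SE) higher in AV on the log2 scale (limma adjusted p = 0.0433). Tnfrsf1a, the main TNF receptor, was lower in AA and ADQ than in AV, by -0.25 ± 0.10 (p = 0.0157, limma adjusted p = 0.999) and -0.40 ± 0.10 (p = 0.000166, adjusted p = 0.134). Traf2, an adaptor of TNF receptors, had a log2 difference of ADQ from YNG of -0.32 ± 0.09 (limma adjusted p = 0.0292). The medians of the log2 differences in AA against AV were 0.02 for the 8 members, -0.09 for the other family genes, -0.01 for the apoptosome list, -0.01 for the regulators and -0.05 for the death receptor list, beside 0.00093 over all genes tested. In AA against ADQ, 0 of 9 other family genes and 2 of 22 apoptosome genes passed, the latter lower in AA. Of the regulators 3 of 32 passed, all lower, and of the death receptor genes 1 of 12, higher. These were 0%, 9.09%, 9.38% and 8.33% of the lists, beside 4.53% of all genes, with none after adjustment.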

How the data were processed

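Poly(A) RNA of the DG was made into 1 library per rat for Ion sequencing. The authors aligned reads with STAR 2.5.3a to rn6 in Partek and scaled them for DESeq2. The deposited values are a signal, that is, read estimates for each row after division by the library's size factor, and the number of reads behind a value is therefore not known exactly. A second deposited table gives each rat's group. The annotation version is not given in the sources used here.

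The 24694 rows were summed to 18347 gene identifiers. Genes with a mean of at least 5 were kept (15598). Values were taken as log2(value + 1), which understates the change of low genes, and fitted with limma 3.58.1 (trended empirical Bayes, R 4.3.3) in a single fit of 4 groups, with no covariate. Tests were two-sided. A gene was called at an unadjusted p of 0.05, the study's threshold, and the Benjamini-Hochberg adjusted p over all genes tested is given beside it. All older groups against YNG used the mean of the 3 group means. Single members were also tested by permutation with 100000 resamples (scipy 1.17.1), without adjustment, over 48 tests.

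Members and lists were chosen with earlier results of these data known. From each list, genes were named if an adjusted p was below 0.05 in a comparison with YNG (at most 6), or if among the 3 smallest p. Simulated data were used to check the fit: of 200 random genes changed by 0.5 on the log2 scale in AA against AV, 83.5% were found among 15598, and 4.86% of unchanged genes were called. Noise was drawn separately for each gene, without a difference between series. The 83.5% is an average and cannot be applied to single members, whose SD within groups ran from 0.08 (Bcl2l2) to 0.46 (Bcl2l11), nor to differences smaller than 0.5. Alternatives are named in the closing section.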

Additional observations from a re-analysis of the deposited data

Results flagged for a closer look

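Of 24 tests of whether a member's difference from YNG itself differed between the 2 rat-number series, 5 had an unadjusted p below 0.05 and none an adjusted p below 0.05. The series were chosen with such differences in these values already known. They were 2 of 8 members in AV, 3 of 8 in AA and 0 of 8 in ADQ, where 21.8%, 17.3% and 8.89% of all genes passed the same test. For Bax the difference from YNG was 0.69 higher on the log2 scale in series b than in series a in AV, and 0.75 higher in AA. For Bad it was 0.62 higher in AV and 0.45 higher in AA (p = 0.0318, limma adjusted p = 0.239). For Bcl2l11 it was -1.05 in AA, that is lower in series b. In none of the 8 members did a YNG rat lie apart from the rest by Dixon's test, and the older groups, of more than 10 rats, were not tested so.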

How the results depend on the processing

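Pseudocounts of 0.5 and 10, no filter on low values, a minimum mean of 20, robust empirical Bayes, the series as a covariate and the row with the highest mean changed the call of none of the 8 members in the 7 comparisons. Other settings moved counts. With library total scaling 3 members passed in AV against YNG, 3 in AA against YNG, 1 in ADQ against YNG, 3 in all older groups against YNG and 1 in ADQ against AV, where 22.3%, 33.2%, 33.5%, 38.2% and 8.73% of all genes did. Bcl2l1 and Bcl2l2 were then higher than in YNG, by 0.27 and 0.19 in AA, beside a shift of 0.15 in the median of all genes. Upper quartile scaling left 0 members in AV against YNG (21.1% of all genes). Weights per library gave 2 in AV, 2 in AA and 3 in all older groups against YNG, where 49.3%, 45.3% and 55.5% of all genes passed, so these counts lie below the background. A fit of the pair alone gave 0 in AA against YNG (25.9% of all genes). The permutation test, not run for all older groups, gave 0 in AV, 0 in AA and 4 in ADQ against YNG. It was run on the members only, so no share of all genes stands beside these counts. In the single limma fit of 4 groups, 28.1% of all genes passed in ADQ against YNG.

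Within series a, with fewer rats, 3 members passed in AV, 3 in AA, 1 in ADQ and 2 in all older groups against YNG, and 1 in ADQ against AV, where 33.4%, 28.6%, 27.4%, 38% and 5.67% of all genes did. Within series b it was 2 in AA and 0 in ADQ against YNG, with 1 for ADQ against AV and none (0) for AA against ADQ, where 12.4%, 6.9%, 9.74% and 4.15% of all genes passed. Bax turned to 0.35 in AV against YNG within series b and to -0.33 in AA against YNG within series a. Within series b, Bad turned to 0.12 in AV and 0.040 in all older groups against YNG, and Bmf to -0.0034 in AA against YNG. The cause was not tested.

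Leaving out 1 rat at a time gave 0 to 2 members in AV against YNG, 0 to 2 in AA against YNG, 2 to 3 for ADQ against YNG, 1 to 1 for all older groups against YNG, 0 to 0 for AA against AV, 0 to 2 for ADQ against AV and 1 to 3 for AA against ADQ. Rows of a member taken alone were tried after the values were seen.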
